A study of Mus musculus with 4 samples.

Results

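Transcripts of 10 transcription factor genes that govern myeloid cell fate were followed in mouse hematopoietic stem and progenitor cells (HSPCs) after loss of Chaf1b. The genes were Cebpa, Cebpb, Cebpd and Cebpe of the C/EBP family, Spi1, Gfi1, Irf8, Klf4, Runx1 and Id2. They were taken as a list, by symbol, from the 43629 gene identifiers of the count files, and all 10 were among the 16500 genes that passed the filter on low counts. None of the 10 passed the study's thresholds in either direction by edgeR's quasi-likelihood test, the main test here. Cebpb came closest in that test, at 2.17 times its control level by the fitted fold, and both deleted libraries lay above both controls. The result for Cebpb depended on the test, and the study names edgeR without saying which of its tests was used. At the same thresholds Cebpb passed in DESeq2, in the likelihood ratio test of edgeR and in its exact test. It did not pass in edgeR's bias-adjusted quasi-likelihood test.

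Chaf1b encodes a subunit of CAF-1, the complex that places histones H3 and H4 on newly replicated DNA. The cells were CD117+ HSPCs of C57Bl/6 mice carrying Chaf1b fl/fl, so both groups had the floxed alleles. They were spinfected with the MIGR1 retrovirus, either empty (MIGR1, 2 libraries) or carrying Cre (Chaf1b -/-, 2 libraries), and transduced cells were sorted by the vector's eGFP. The labels give a time of 48 h for every library and a StemSpan SFEMII culture with SCF at 50 ng/mL, IL6 at 20 ng/mL, IL3 at 10 ng/mL and LDL, and they give no age. The study's methods state a lower IL6 dose than the labels. The control vector carries no Cre, so Cre itself and the loss of Chaf1b cannot be told apart. The sources used here do not say whether the 2 libraries of a group came from separate animals or cultures, so the p-values measure only the spread between these libraries. For the MIGR1 libraries that spread may be technical, while the Chaf1b -/- libraries differ in sex-linked transcripts, given with the other whole-library values, and so did not come from 1 animal.

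Blood progenitors become myeloid cells under a small set of transcription factors that act in sequence and against each other. PU.1, the product of Spi1, and C/EBPα open the myeloid programme, and their balance with Gfi1, Irf8 and Klf4 biases a progenitor towards neutrophils or towards monocytes and dendritic cells. C/EBPε drives the late granule genes of neutrophils. C/EBPβ and C/EBPδ are induced by cytokines, and C/EBPβ takes over when granulocyte production is stepped up in stress. Runx1 acts upstream in blood stem cells, and Id2 is a helix-loop-helix protein without a DNA-binding domain that blocks E proteins.

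The sequence around the start site of Cebpb is shown because it was the member with the largest fitted increase. RefSeq (GRCm38.p6) promoters of 300 bases, 250 before the start and 50 after it, were matched for 7 of the 10 genes. Those of Cebpd, Cebpe and Spi1 were not matched. In the Cebpb promoter (chr2:167688665-167688964, plus strand) the capitals mark the letters TGACG, the core of the cAMP response element, or their reverse complement.
Cebpb: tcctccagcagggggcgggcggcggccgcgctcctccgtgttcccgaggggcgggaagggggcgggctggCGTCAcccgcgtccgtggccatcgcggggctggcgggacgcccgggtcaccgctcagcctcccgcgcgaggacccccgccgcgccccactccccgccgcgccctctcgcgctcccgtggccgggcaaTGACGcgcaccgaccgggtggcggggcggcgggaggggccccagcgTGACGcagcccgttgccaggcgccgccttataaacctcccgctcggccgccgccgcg
TGACG occurred 3 times in the Cebpb promoter, at positions -180, -53 and -7 from the start, the first of them on the opposite strand. Of the 32851 promoters in the table, 20.8% held it at least once on either strand and 1.03% at least 3 times. Among the other members only Klf4 had it, once, at -232 on the opposite strand. The Cebpb promoter is 80.7% G or C, and those shares were not limited to promoters of like composition. TATAAA, the letters of a TATA box, lay at position 22 in Cebpb, after the start, against -30 in Cebpa and -31 in Irf8. The positions given thus hold only for the RefSeq start used. These matches describe the letters and say nothing about binding.

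Expression is given as CPM in each library, a gene's counts relative to all counts on genes there, and differences as log2 fold changes, Chaf1b -/- minus MIGR1, from edgeR's quasi-likelihood test. Chaf1b itself was at 80.3 and 57.9 CPM in the MIGR1 libraries and at 16.1 and 17.9 in the Chaf1b -/- libraries, a log2 fold change of -2.01 (SE 0.245, adjusted p = 0.033). Counts on genes ranged from 18468637 to 25409926 per library. Kit, which encodes CD117, was present at 95.6 to 124 CPM in all 4 libraries, and the 13 neutrophil markers summed to between 48460 and 71640 CPM. Chaf1b -/- replicate 1 stood apart from the other 3 libraries. Its 25 interferon-stimulated genes lay a median of 3.42 log2 units above the MIGR1 mean, against 0.19 in Chaf1b -/- replicate 2. It also had 336 CPM of Xist, against at most 1.3 in the others, and 3 counts over 4 Y-linked genes, against 5805 to 7771. Each member is therefore also given without that library.

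A gene was called at a change of at least 1.5-fold with a Benjamini-Hochberg adjusted p under 0.05 over the 16500 genes. By that rule 0.37% of all genes were called higher and 0.00606% lower, and 0 of the 10 members were called in either direction. At an unadjusted p under 0.05 in edgeR, 2 of the 10 were higher, Cebpb and Cebpd, beside 9.15% of all genes, and 0 were lower, beside 3.1%. Both Chaf1b -/- libraries were above both MIGR1 libraries for 3 members, Cebpb, Cebpd and Irf8, beside 21.4% of all genes, and below both for 0, beside 22.9%. The log2 fold change was above 0 for 8 of the 10, with a median of 0.25, beside 47.5% of all genes and a median of -0.03. Without Chaf1b -/- replicate 1 it was above 0 for 5 of the 10, with a median of 0.09, and at an unadjusted p under 0.05 there was 1 member higher, Cebpb, beside 8.36% of genes, and 1 lower, Gfi1, beside 4.26%.

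**Figure D1:**
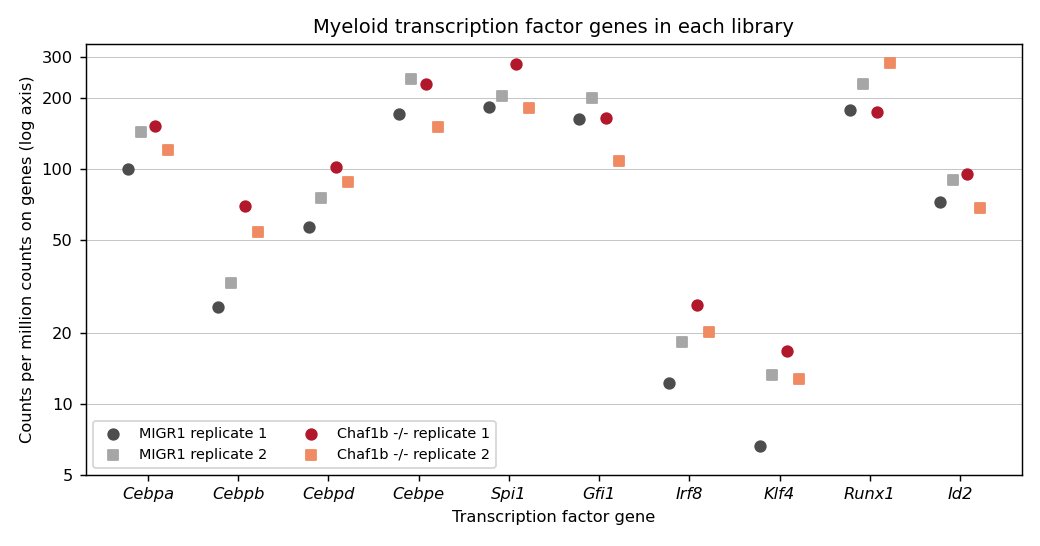
Expression of the 10 genes in each library, in CPM on a log axis, with 1 point per library, grey for MIGR1 and red or orange for Chaf1b -/-. Cebpb, Cebpd and Irf8 are the genes in which both Chaf1b -/- points lie above both MIGR1 points.

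Within the C/EBP family, Cebpb and Cebpd were higher in both deleted libraries, while Cebpa and Cebpe overlapped between the groups. Cebpb, the stress-induced member, was at 25.9 and 32.5 CPM in MIGR1 and at 69.2 and 53.9 CPM in Chaf1b -/-. The lower deleted library was thus well above the higher control, and the Wilson 95% intervals for counting error, 50.7 to 57.4 and 30.4 to 34.8 CPM in these, did not meet. Those of the libraries within each group did not meet either, at 23.9 to 28.1 and 30.4 to 34.8 CPM in MIGR1. The intervals therefore do not measure the spread between libraries. The log2 fold change of Cebpb was 1.12 (SE 0.258, 95% interval 0.52 to 1.72), with an adjusted p of 0.14 and rank 329 among the p-values of the 16500 genes. The gap was present in each deleted library on its own, with a log2 fold change of 0.80 (adjusted p = 0.227) without Chaf1b -/- replicate 1 and 1.38 (adjusted p = 0.0357) without replicate 2. It passed the thresholds in edgeR's exact test, where 3.25% of all genes were called higher, in its likelihood ratio test (3.53%), in DESeq2 (2.85%), without the filter on low counts (2.57%) and without Chaf1b -/- replicate 2 (1.89%), with adjusted p-values from 0.003 to 0.337 over all alternatives.

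Cebpb is a single-exon gene at chr2:167514415-167515918 on the plus strand (mm9, NCBIM37), and its exon overlaps Tmem189 on the opposite strand. Tmem189 was at 46.3 and 45.4 CPM in MIGR1 and at 59.1 and 64.5 CPM in Chaf1b -/-, a log2 fold change of 0.45 (SE 0.197). The strand setting of the counting is not given in the sources used here, and reads of the shared stretch cannot be told apart without it.

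Cebpd, also a cytokine-induced member, was at 56.6 and 75.0 CPM in MIGR1 and at 102 and 87.8 CPM in Chaf1b -/-. All 4 libraries were separated by group, but the gap between the nearest pair was smaller than the spread within MIGR1. The log2 fold change was 0.56 (SE 0.241, 95% interval 0.003 to 1.12, adjusted p = 0.404), and 0.34 without Chaf1b -/- replicate 1.

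Cebpa, which sets up the granulocyte-monocyte progenitor, was at 99.7 and 144 CPM in MIGR1 and at 152 and 120 CPM in Chaf1b -/-. One deleted library lay between the controls and the other just above them. The log2 fold change of 0.20 (SE 0.268, 95% interval -0.42 to 0.82, adjusted p = 0.822) turned to -0.10 without Chaf1b -/- replicate 1 and to -0.04 without MIGR1 replicate 1.

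Cebpe, the late neutrophil member, was at 171 and 240 CPM in MIGR1 and at 228 and 150 CPM in Chaf1b -/-. Here the deleted libraries differed from each other by 1.52 times, more than the controls did, and one lay on each side of the MIGR1 mean. The log2 fold change was -0.07 (SE 0.307, 95% interval -0.78 to 0.64, adjusted p = 0.953), -0.53 without Chaf1b -/- replicate 1 and 0.29 without replicate 2.

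Spi1, which encodes PU.1, was at 183 and 203 CPM in MIGR1, the closest controls of the 10 genes. The Chaf1b -/- libraries were at 279 and 182 CPM, so the first was above both controls and the second was level with the lower one. A log2 fold change of 0.31 (SE 0.288, adjusted p = 0.739) turned to -0.17 without Chaf1b -/- replicate 1.

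Gfi1, a repressor that favours neutrophils and restrains PU.1 and monocyte genes, was at 163 and 200 CPM in MIGR1 and at 164 and 108 CPM in Chaf1b -/-. It was the member with the most negative difference, with 1 deleted library at the lower control and the other well below both. The log2 fold change was -0.37 (SE 0.288, 95% interval -1.04 to 0.30, adjusted p = 0.675), -0.83 without Chaf1b -/- replicate 1 and -0.01 without replicate 2. Gfi1 lies at chr5:108145674-108155056 on the minus strand and its exons overlap A430072P03Rik on the plus strand, which was at 11.1 and 12.2 CPM in MIGR1 and at 8.54 and 7.09 CPM in Chaf1b -/-.

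Irf8, needed for monocytes and dendritic cells and itself inducible by interferon, was at 12.3 and 18.3 CPM in MIGR1 and at 26.5 and 20.2 CPM in Chaf1b -/-. Both deleted libraries were above both controls, the second by little. Irf8 had a log2 fold change of 0.65 (SE 0.310, 95% interval -0.07 to 1.37, adjusted p = 0.466) and of 0.32 without Chaf1b -/- replicate 1, the library in which the interferon-stimulated genes were high, summing to 3349 CPM against 582 to 702 in the other 3. Their part in the Irf8 value was not tested.

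Klf4, a driver of the monocyte fate, was at 6.60 and 13.3 CPM in MIGR1 and at 16.8 and 12.7 CPM in Chaf1b -/-. MIGR1 replicate 1 was low and the other 3 libraries were close to each other, so that the controls differed by 2.02 times, the widest spread within a group among the 10 genes. That library also had the lowest count of any member, 150, with a Wilson 95% interval of 5.62 to 7.74 CPM. Klf4 had a log2 fold change of 0.61 (SE 0.398, adjusted p = 0.6), of 0.20 without MIGR1 replicate 1 and of 0.28 without Chaf1b -/- replicate 1. Of its exonic stretches of 31 bases, 23.4% occur elsewhere in the genome, so reads from those could be lost or shared in counting.

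Runx1, which acts upstream of the others in blood stem cells, was at 177 and 228 CPM in MIGR1 and at 175 and 281 CPM in Chaf1b -/-. It differed from the other members in its order of the deleted libraries, with Chaf1b -/- replicate 2 the higher. Its log2 fold change was 0.18 (SE 0.249, adjusted p = 0.829), 0.39 without Chaf1b -/- replicate 1 and -0.07 without replicate 2. Id2, the inhibitor of E proteins, was at 72.0 and 89.2 CPM in MIGR1 and at 95.2 and 67.8 CPM in Chaf1b -/-. The deleted libraries lay just outside the controls on either side, and the log2 fold change was 0.06 (SE 0.270, adjusted p = 0.952), -0.33 without Chaf1b -/- replicate 1 and 0.38 without replicate 2.

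**Figure D2:**
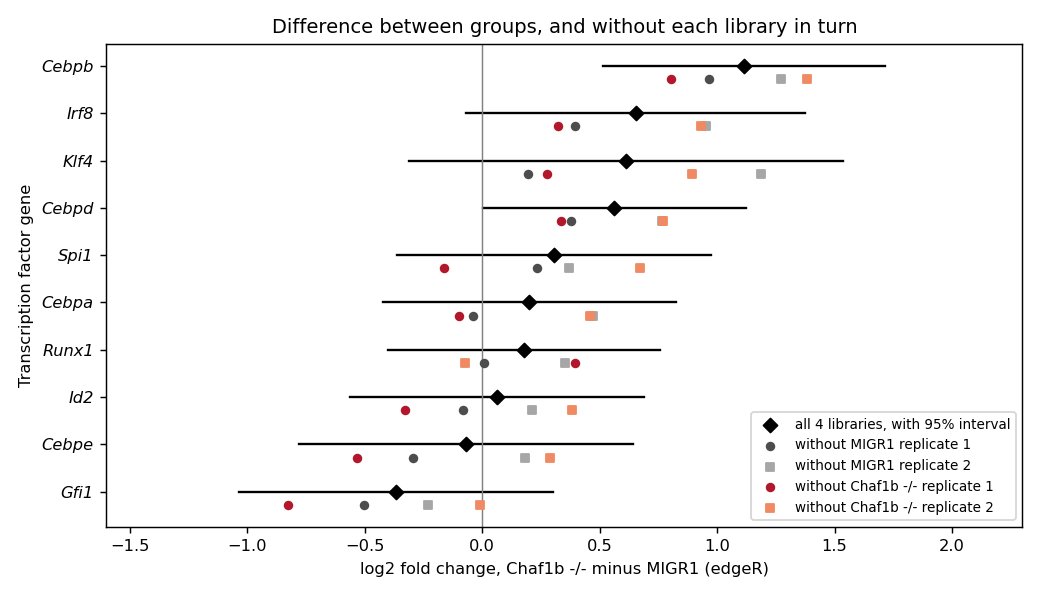
Log2 fold changes of the 10 genes, Chaf1b -/- minus MIGR1, from edgeR. Black diamonds with 95% intervals use all 4 libraries, and the coloured points below each give the value without 1 library. The Cebpb points lie between 0.80 and 1.38, while those of Cebpa, Cebpe, Spi1, Runx1 and Id2 lie on both sides of 0.

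The 2 Chaf1b -/- libraries did not move together over the list. In CPM, replicate 1 was above both controls for 7 members and below both for 1, Runx1. Replicate 2 was above both for 4, Cebpb, Cebpd, Irf8 and Runx1, and below both for 4, Cebpe, Spi1, Gfi1 and Id2, Spi1 by little. After TMM normalization, Runx1 in replicate 1 lay between the controls, at 189 against 177.5 and 224 CPM. Cebpe there then lay above both, at 247 against 171 and 236.5 CPM. Shares over all genes were not counted for single libraries, so these counts are a description. Summed over the 10 genes, the libraries were at 967 and 1244 CPM in MIGR1 and at 1307 and 1084 CPM in Chaf1b -/-, so the total level of the list overlapped between the groups. MIGR1 replicate 2 was above MIGR1 replicate 1 for each of the 10 genes. In bulk RNA, fewer cells of a type and less RNA per cell cannot be told apart.

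Ratios of 2 members within a library do not depend on how libraries are scaled. Of the 45 ratios, 29 (64.4%) did not overlap between the groups, beside 43.9% of all pairs of tested genes with a count in every library. The ratios share genes, and those below were chosen after their values were seen, so they are a description with no test. All 9 ratios with Cebpb were separated, each with Cebpb the relatively higher gene in Chaf1b -/-. So were 8 of the 9 with Gfi1, each with Gfi1 the relatively lower one. Cebpb and Gfi1 had the largest and the most negative fold change among the members, so these counts in part restate those differences. The share of separated ratios for a single gene was not counted over all genes. Only 1 of the 9 with Runx1 was separated.

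The ratio of Cebpb to Gfi1 was 0.159 and 0.163 in MIGR1 and 0.422 and 0.498 in Chaf1b -/-, a 2.85-fold difference. That of Cebpb to Cebpe was 0.152 and 0.135 in MIGR1 and 0.303 and 0.359 in Chaf1b -/-. The 2 libraries of each group were close, although Gfi1 and Cebpe themselves differed by about 1.5 times between the deleted libraries (1.51 and 1.52). Cebpa to Cebpb, the steady-state against the stress member, was 3.85 and 4.42 in MIGR1 and 2.20 and 2.22 in Chaf1b -/-. Gfi1 to Irf8, a repressor of the monocyte fate against a driver of it, was 13.3 and 10.9 in MIGR1 and 6.19 and 5.37 in Chaf1b -/-. Spi1 to Gfi1 was 1.12 and 1.02 in MIGR1 and 1.70 and 1.68 in Chaf1b -/-. Within the cytokine-induced pair, Cebpb to Cebpd was 0.458 and 0.434 in MIGR1 and 0.680 and 0.614 in Chaf1b -/-. Cebpb was thus the relatively higher of them as well. In each of these the gap between the groups was wider than the spread within either, on the log2 scale. Without any 1 library, the log2 change stayed between 1.39 and 1.63 for Cebpb to Gfi1, between -1.21 and -0.92 for Gfi1 to Irf8, between -1.0 and -0.80 for Cebpa to Cebpb and between 0.60 and 0.74 for Spi1 to Gfi1.

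Other textbook pairs overlapped. Cebpa to Spi1, the C/EBPα and PU.1 genes, was 0.546 and 0.708 in MIGR1 and 0.544 and 0.659 in Chaf1b -/-. Irf8 to Klf4, which act together in monocytes, was 1.86 and 1.38 in MIGR1 and 1.58 and 1.59 in Chaf1b -/-. Cebpe to Runx1 was 0.965 and 1.05 in MIGR1 and 1.305 and 0.535 in Chaf1b -/-, so the deleted libraries lay on either side of the controls.

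**Figure D3:**
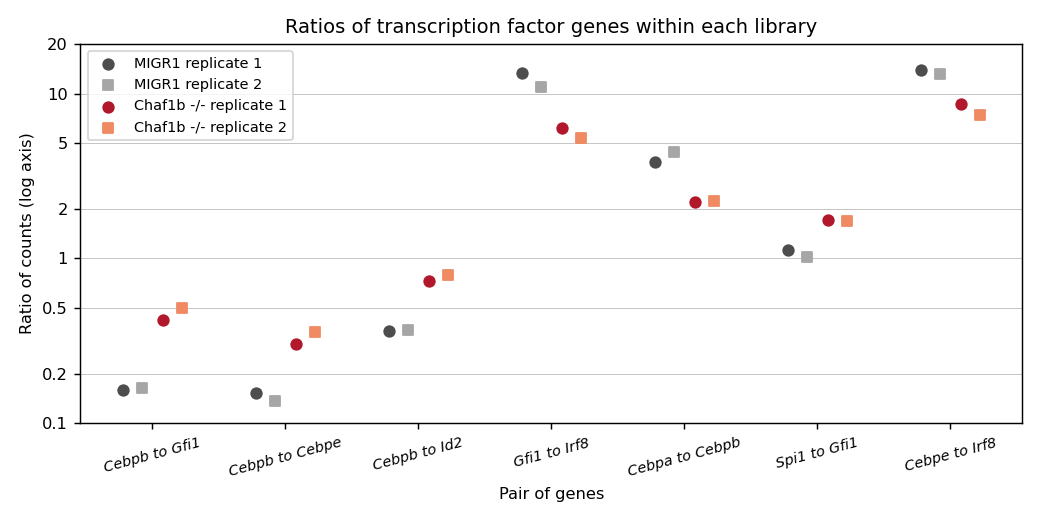
Ratios of the counts of 2 genes within each library, on a log axis, for 7 pairs chosen after their values were seen, with 1 point per library. The 2 groups are apart in each pair, for example 0.159 and 0.163 against 0.422 and 0.498 for Cebpb to Gfi1.

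In the NCBIM37 annotation (mm9) the 10 genes lie on 8 chromosomes. Cebpa is a single-exon gene at chr7:35904312-35906945 on the plus strand, with none of its exonic stretches of 31 bases elsewhere in the genome. Cebpd (chr16:15887379-15888559, plus), which this annotation types as a pseudogene, and Cebpe (chr14:55329200-55331011, minus) also had none. Spi1 spans chr2:90922547-90955913 on the plus strand and Irf8 chr8:123260258-123280594 on the plus strand, each with under 0.1% of stretches elsewhere. Klf4 lies at chr4:55540013-55545347 on the minus strand and Runx1 at chr16:92601712-92826311 on the minus strand, where Gm16801 overlaps its exons from the other strand. For Id2, at chr12:25778666-25780957 on the minus strand, 12.8% of the stretches occur elsewhere, the highest share of the 10 after Klf4, and reads from them may be lost or shared in counting.

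Compared per kilobase of exon, which allows different genes to be set side by side, the members spanned a wide range of levels. In MIGR1, Cebpe was highest at 166 ± 39.7 CPM per kb (SD, n = 2), above all others in both libraries. Spi1 (71.6 ± 5.39), Id2 (63.4 ± 9.59), Gfi1 (55.9 ± 8.02), Cebpd (55.8 ± 11.1) and Cebpa (46.2 ± 11.9) followed, and neighbours in that order overlapped. Runx1 (26.0 ± 4.62) and then Cebpb (19.4 ± 3.12) were separated from their neighbours on both sides, and Klf4 (3.25 ± 1.55) and Irf8 (2.17 ± 0.604) overlapped at the bottom. In Chaf1b -/-, Cebpe was again highest at 153 ± 44.5 CPM per kb and Klf4 (4.82 ± 0.937) and Irf8 (3.31 ± 0.629) lowest. Cebpb, at 40.9 ± 7.16, was no longer separated from Gfi1 (41.9 ± 12.1) above it or Runx1 (29.2 ± 9.63) below it.

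Target genes and other factors of the pathway were read from fixed lists. Of 14 receptor genes under PU.1 control, 0 were called, at p under 0.05 before adjustment 6 were higher and 0 lower, with a median log2 fold change of 0.50, and 0.35 without Chaf1b -/- replicate 1. The lowest p-values were those of Cd14, a lipopolysaccharide co-receptor of monocytes (15.9 and 22.5 CPM in MIGR1, 61.3 and 49.6 in Chaf1b -/-, log2 fold change 1.57, SE 0.273), the integrin Itgax (1.68, SE 0.353) and the interleukin-3 receptor subunit Il3ra (1.02, SE 0.315). Spi1 itself was level in Chaf1b -/- replicate 2, while Cd14 was above both controls in both libraries. The part of Spi1 in the values of these receptor genes was not tested.

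Of 18 tested granule genes under C/EBP control, 0 were called, at p under 0.05 before adjustment 3 were higher and 1 lower, with a median of 0.27. The median was -0.15 without Chaf1b -/- replicate 1 and 0.52 without replicate 2. The gelatinase Mmp9 was at 135 and 44.4 CPM in MIGR1 and at 664 and 506 CPM in Chaf1b -/- (log2 fold change 2.74, SE 0.511, adjusted p = 0.0849), and the collagenase Mmp8 had a log2 fold change of 1.69 (SE 0.396). Elane, the elastase of early neutrophil progenitors, was at 1739 and 2369 CPM in MIGR1 and at 1229 and 751 CPM in Chaf1b -/- (log2 fold change -1.0, SE 0.365). These 3 were the lowest in p, and of the 18 genes 6 were above both controls in both deleted libraries, 1 was below both and the others overlapped.

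Among 27 tested relatives and partners of the 10 genes, 0 were called, at p under 0.05 before adjustment 5 were higher and 0 lower, with a median of 0.09, and 3 were higher and 0 lower without Chaf1b -/- replicate 1. Id1, a paralog of Id2, was at 42.3 and 62.3 CPM in MIGR1 and at 108 and 90.4 CPM in Chaf1b -/- (log2 fold change 0.96, SE 0.265, adjusted p = 0.206). Spib, a paralog of Spi1, was low throughout, at 1.36 and 3.31 CPM in MIGR1 and 11.2 and 5.90 CPM in Chaf1b -/- (1.93, SE 0.562). Irf7, a paralog of Irf8 and an interferon-stimulated gene, was at 20.4 and 29.3 CPM in MIGR1 and at 276 and 35.8 CPM in Chaf1b -/- (2.76, SE 0.828), so its difference lay almost wholly in replicate 1.

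Of 20 tested other myeloid and dendritic transcription factors, 2 were called higher and 0 lower, at p under 0.05 before adjustment 11 were higher and 0 lower, and the median was 0.78. The called genes were the AP-1 subunits Jun, at 74.5 and 81.6 CPM in MIGR1 and 231 and 233 CPM in Chaf1b -/- (log2 fold change 1.60, SE 0.206, adjusted p = 0.0367), and Fosb (1.58, SE 0.206, adjusted p = 0.0367). Both also stand in the list of immediate early genes, which shares further genes with these factors, so the lists are not separate results. Of the 18 immediate early genes, 13 were higher and 0 lower at p under 0.05 before adjustment. Their summed level was 802 and 1110 CPM in MIGR1 and 2221 and 1708 CPM in Chaf1b -/-. Both deleted libraries thus exceeded both controls in this sum, as they did for Cebpb and Cebpd, and the part of these genes in those values was not tested. The NF-kB subunit Relb, with a log2 fold change of 1.62 (SE 0.284), was not called.

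Factors of other lineages were read in the same way. Of 10 erythroid and megakaryocyte factors, 0 were called and 0 passed p under 0.05 before adjustment, with a median of -0.20. Of 14 stem and progenitor factors, 0 were called, 3 were higher and 1 lower, with a median of -0.03. Sox4 was the lowest in p, at 10.3 and 7.91 CPM in MIGR1 and 18.1 and 16.2 CPM in Chaf1b -/- (log2 fold change 0.95, SE 0.301). Mycn was also among the higher genes (0.91, SE 0.348). The lower gene was Myb, at 475 and 492 CPM in MIGR1 and 298 and 334 CPM in Chaf1b -/- (log2 fold change -0.59, SE 0.213). Of 9 tested lymphoid factors, 0 were called, 3 were higher and 0 lower, with a median of 0.88, and Tcf7, the lowest in p, did not exceed 9.15 CPM.

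Markers of the cell types in which these factors act were read at the same thresholds. Some of these lists share genes with each other or with the granule and receptor lists, so their counts are not separate results. Of 13 neutrophil markers, 1 was called higher, the chemokine receptor Cxcr2 (log2 fold change 1.52, SE 0.218, adjusted p = 0.0429), and before adjustment 6 were higher and 0 lower. Of 11 tested dendritic cell markers, 1 was called, the cytokine receptor Flt3 (4.66 and 5.31 CPM in MIGR1, 19.3 and 22.7 in Chaf1b -/-, adjusted p = 0.0383), and 4 were higher and 0 lower. Of 13 tested monocyte and macrophage markers, 0 were called and 4 were higher and 0 lower. That count turned on single libraries, as did the median log2 fold change. The median was 0.01 with all 4 libraries, -0.35 without Chaf1b -/- replicate 1 and 0.41 without Chaf1b -/- replicate 2. Their summed level was 938 and 1677 CPM in MIGR1 and 2128 and 1088 CPM in Chaf1b -/-, so it was highest in Chaf1b -/- replicate 1 and MIGR1 replicate 2, which were also the highest libraries for Cebpa, Cebpe, Spi1, Gfi1, Klf4 and Id2. Of 12 tested mast cell, basophil and eosinophil markers, 1 was higher and 3 lower, among them eosinophil peroxidase Epx (-1.76, SE 0.296). Of 11 erythroid markers 1 was higher and 2 lower, of 8 megakaryocyte markers 5 were higher and 0 lower, and of 8 tested lymphoid markers 4 were higher and 0 lower, against 1 and 1 without Chaf1b -/- replicate 1. Of 10 stem and progenitor markers, 1 was called, Flt3 again, which stands in both lists, and 4 were higher and 1 lower. The part of these cell types in the members' values was not tested.

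**Figure D4:**
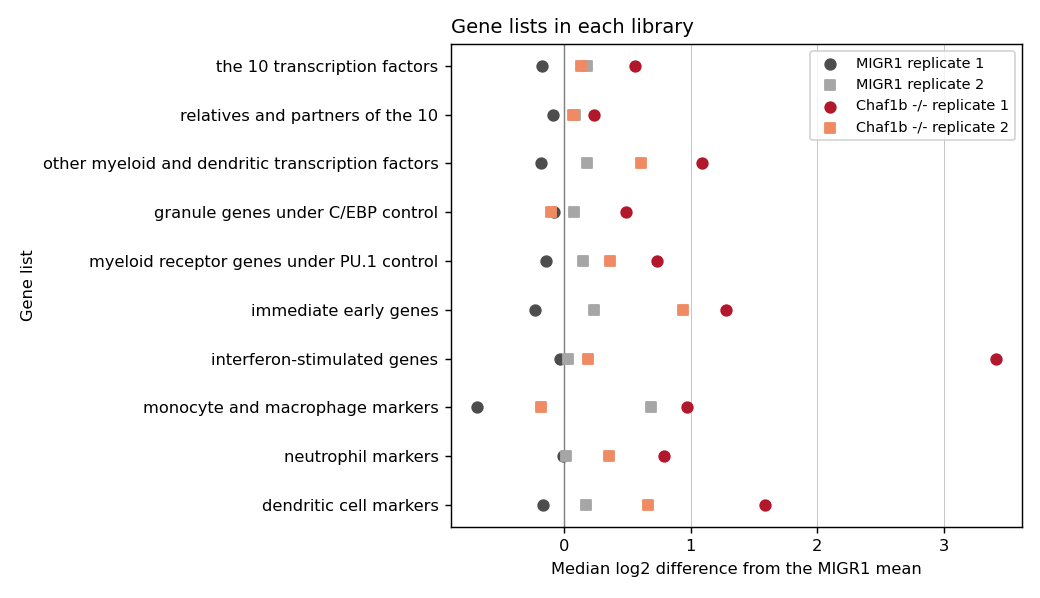
Median log2 difference of each gene list from the mean of the MIGR1 libraries, with 1 point per library. The 10 transcription factors lie at 0.56 in Chaf1b -/- replicate 1 and 0.14 in replicate 2, beside 3.42 and 0.19 for the interferon-stimulated genes.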

How the data were processed

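RNA from 4 libraries was prepared with a stranded, ribosome-depleted total RNA kit. Per the labels, the authors aligned reads with STAR to mm9 and counted them with HTSeq, and the deposited values are raw counts per gene, with replicates not pooled. The annotation release and the strand setting are not given in the sources used here. Between 35.8% and 48.3% of uniquely aligned reads lay outside genes and were left out, as were the 5 summary lines of each count file. Names came from NCBIM37 (mm9), which named 33068 of 43629 identifiers, and Spi1 was matched through its older name Sfpi1. Of 268 list entries, 1 (Azu1) was not matched.

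The members and lists were chosen with earlier results of these data known. The genes named are the 10 members, Chaf1b, and from each other list at most the 3 tested genes with the lowest p and any gene called. Kit, Xist, the overlapping genes and the ratios of members were named outside that rule, after their values were seen.

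CPM were computed over all counts on genes, and CPM per kb over the union of exons. Tests used edgeR 4.0.16 (R 4.3.3) with its expression filter at a minimum count of 10, TMM normalization (factors 0.925 to 1.06), glmQLFit and glmQLFTest between the groups, with no covariate, and Benjamini-Hochberg adjustment over the 16500 genes tested. The biological coefficient of variation was 0.276. SE were derived from the F statistic and 95% intervals from its degrees of freedom. Log2 values per library used a pseudocount of 0.5 TMM CPM. The fit was tested on simulated data. Alternatives were other normalizations and filters, edgeR's exact, likelihood ratio and bias-adjusted quasi-likelihood tests, DESeq2 1.42.0, the replicate number as a block, other thresholds, and each library left out. Leaving out libraries for the ratios and list medians was chosen after seeing the data.

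At these depths 3 counts equal 0.118 to 0.162 CPM. Reads carry no molecular identifiers, so Wilson intervals cover counting error only. No 2 libraries of a group agreed within counting noise. The study's other experiments were not analysed here.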

Additional observations from a re-analysis of the deposited data

How the results depend on the processing

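Across the 16 alternatives, 147 of the 160 values of the 10 genes kept their direction and their side of the thresholds. Alternatives with other thresholds reused the main fold changes, so direction could not change in them. Other tests, filters and normalizations compared the same libraries, so the count of 147 says little about agreement between libraries. The exceptions were 5 in which Cebpb passed and 8 sign changes, all on leaving out 1 library. Over those fits the log2 fold change ranged from -0.10 to 0.47 for Cebpa, from -0.53 to 0.29 for Cebpe, from -0.17 to 0.67 for Spi1, from -0.072 to 0.39 for Runx1 and from -0.33 to 0.38 for Id2. No normalization changed a member's sign. Without the filter on low counts, and under edgeR's exact test, its likelihood ratio test and DESeq2, 1 member was called higher, Cebpb in each. On leaving out 1 library, 0 to 1 members were called higher, 1 to 4 were higher and 0 to 1 lower at an unadjusted p under 0.05. That count of higher members was 1 with DESeq2's size factors, the exact test, the likelihood ratio test, DESeq2 and the replicate block.

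Over all genes, 61 were called higher and 1 lower. The counts were 27 higher with DESeq2's size factors, 30 with library size only, 808 higher and 79 lower among 31399 genes without the filter, 3 and 0 among 14240 genes with at least 10 counts in every library, 537 and 37 by the exact test, 583 and 40 by the likelihood ratio test, 471 and 32 by DESeq2, and 0 and 0 at 2-fold with an adjusted p under 0.01. Leaving out 1 library gave 125 to 331 higher and 6 to 42 lower. Such fits leave 1 library in a group, which is then assumed to vary like the other group. The fewer genes tested under the stricter count minimum are part of its construction, and the cause was not tested for the other alternatives.

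Of 34 list counts at an unadjusted p under 0.05, 14 moved by over 1.5 times without MIGR1 replicate 1, 8 without MIGR1 replicate 2, 11 without Chaf1b -/- replicate 1 and 10 without Chaf1b -/- replicate 2.

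The replicate number as a block gave 14 genes higher and 0 lower and changed no member's call. Replicate 1 minus replicate 2 differences of the groups correlated at 0.0181 across genes, so the numbers do not pair the libraries. With 2 libraries a group, the members' 95% intervals span more than 1 log2 unit, and differences within them were not detectable.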
